A study of Mus musculus with 7 samples.

Results

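H3K18La signal was described over the genes of 10 autosomal histone lysine demethylases: Kdm1a, Kdm2a, Kdm2b, Kdm3a, Kdm4a, Kdm4b, Kdm4c, Kdm5a, Kdm5b and Kdm6b. H3K18La is histone H3 with a lactyl group on lysine 18, a modification that draws on cellular lactate. Every merged peak that the deposited annotation assigned to one of these gene symbols was taken, first the promoter peak nearest the transcription start site and then the rest. This gave 54 of 108253 peaks, of which 16 were annotated as promoter (from 1000 bases before to 500 bases after a start site) and 38 as intron, exon, UTR or distal intergenic. Kdm5a had no peak under its symbol, so 9 of the 10 genes carried peaks, from 1 at Kdm3a to 14 at Kdm4b. Whole retinas of C57Bl/6J mice were taken at postnatal days 4, 10 and 28 (P4, P10 and P28) and dissociated with papain, and the mark was profiled by CUT&Tag, in which an antibody brings an enzyme to the marked histone and the DNA beside it is sequenced. P4 and P10 had 2 libraries each and P28 had 3, all of one strain and untreated by the labels. Batch 2 consisted of P28 replicate 1 alone. The study's methods call the libraries of an age biological replicates, without saying how many animals each came from, and p-values measure the spread between them. The mark was read from a mixture of all retinal cells, in which more cells carrying the mark and more mark per cell cannot be told apart.

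Histone lysine demethylases remove methyl groups from histone tails. Kdm1a (LSD1) is a flavin-dependent enzyme that acts with the CoREST corepressor on methylated H3K4, and the other 9 are JmjC-domain enzymes that need iron, oxygen and alpha-ketoglutarate. Kdm5a and Kdm5b act on H3K4, Kdm2a and Kdm2b on H3K36, Kdm3a on H3K9, Kdm4a, Kdm4b and Kdm4c on H3K9 and H3K36, and Kdm6b (JMJD3) on H3K27. Active promoters usually carry methylated H3K4, whereas methylated H3K9 and H3K27 are best known from silent chromatin. In the retina, rod photoreceptors form the most numerous cell type, and most of their maturation falls between P4 and P28.

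RefSeq promoter sequences (GRCm38.p6) were at hand for 6 of the 10 genes, in 12 entries. The 250 bases before the start site are shown for those that frame the results below: Kdm5b, where every peak gained signal, both start sites of Kdm4c, which differ in base composition, and an internal start site of Kdm2b, rich in CpG. Each reads 5′ to 3′ on the strand of the gene. Capitals mark matches, on either strand, to any of the 8 motifs spelled out after them.
Kdm5b, chr1:134559928-134560177, plus strand: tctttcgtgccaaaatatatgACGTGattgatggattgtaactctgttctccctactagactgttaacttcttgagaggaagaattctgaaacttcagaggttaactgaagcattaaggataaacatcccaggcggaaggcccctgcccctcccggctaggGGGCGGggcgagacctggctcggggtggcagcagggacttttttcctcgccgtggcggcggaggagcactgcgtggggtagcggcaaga
Kdm4c upstream start, chr4:74242247-74242496, plus strand: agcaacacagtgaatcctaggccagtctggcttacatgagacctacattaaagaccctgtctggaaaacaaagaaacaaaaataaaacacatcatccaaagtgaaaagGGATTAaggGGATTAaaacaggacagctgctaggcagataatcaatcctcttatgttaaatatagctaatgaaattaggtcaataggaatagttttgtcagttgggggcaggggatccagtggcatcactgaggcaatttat
Kdm4c downstream start, chr4:74251629-74251878, plus strand: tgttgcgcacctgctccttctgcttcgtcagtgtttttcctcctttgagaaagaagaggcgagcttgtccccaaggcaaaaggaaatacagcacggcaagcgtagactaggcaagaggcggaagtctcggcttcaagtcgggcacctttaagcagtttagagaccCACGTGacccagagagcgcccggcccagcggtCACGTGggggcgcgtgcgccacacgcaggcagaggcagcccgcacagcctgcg
Kdm2b internal start, chr5:122900368-122900617, minus strand: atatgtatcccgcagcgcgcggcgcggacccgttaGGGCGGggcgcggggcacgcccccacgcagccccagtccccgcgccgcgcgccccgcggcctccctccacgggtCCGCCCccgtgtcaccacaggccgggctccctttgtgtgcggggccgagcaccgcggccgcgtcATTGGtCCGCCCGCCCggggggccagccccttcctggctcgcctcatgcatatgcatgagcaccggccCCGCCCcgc

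The motifs searched on both strands were the GC box GGGCGG, the E-box CACGTG, the hypoxia core ACGTG (which lies inside the E-box), the CCAAT box, the TATA box TATAAA, the NRF1 core GCATGCGC, the ETS core CCGGAAG and TAATCC, the last bound by the photoreceptor homeobox factors Crx and Otx2. The Kdm5b window held 1 GC box, 1 ACGTG and 13 CpG, against a median of 6 CpG over 32851 promoter entries. The upstream Kdm4c window held no CpG and 2 copies of TAATCC (read as GGATTA on this strand), whereas the downstream window, which includes 76 exon bases of the noncoding gene A230083N12Rik, held 19 CpG and 2 copies of CACGTG. The internal Kdm2b window held 36 CpG and 5 GC boxes. Over the 12 entries, some of which overlap, a GC box was found in 6, against 32.7% of all entries, CCAAT in 5 (33.8%), TAATCC in 2 (6.25%), ACGTG in 2 (16.6%), CACGTG in 1 (6.02%), CCGGAAG in 1 (6.91%), and TATAAA (12.4%) and GCATGCGC (2.26%) in none. These matches are letters in a window and no measure of binding.

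Signal is given as RPKM, the reads of a peak scaled to its width and to the normalized library size. Between 199970 reads (P10 replicate 1) and 8274373 reads (P28 replicate 2) fell in peaks, and such reads in peaks made up 16.3% and 17.6% of the normalized size at P4, 36.1% and 52.1% at P10 and 42.4% to 57.1% at P28. Individual peaks rested on few reads at the younger ages: both P4 libraries had 3 reads or fewer in 39 of the 54 peaks, and both P10 libraries in 27. In a peak of median width (757 bases) 3 reads correspond to 1.80 and 2.36 RPKM at P4, 7.15 and 3.12 at P10, and 0.244 to 1.04 at P28. Read ratios below are the reads summed over the libraries of an age, divided by the summed normalized library size of that age, and compared between ages, with a 95% exact interval that covers counting error only. Because the ages differ in depth, read counts themselves are not compared. Changes were tested with limma on log2(RPKM + 1) over all peaks and called at an adjusted p under 0.01.

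From P4 to P28, H3K18La was called higher at the promoter peak of most demethylase genes that had one. The merged peaks were found in these same libraries, so a peak could enter the set through the age at which it was high. How far this, or the greater depth at P28, added to the higher calls was not tested. The shares over all peaks come from the same set. With libraries scaled to reads in peaks, 1 of the 16 promoter peaks was called higher. Of the 54 peaks, 17 were called higher and 1 lower at P28, against 18.9% called higher and 4.21% called lower over all peaks of the retina. Among the 16 promoter peaks 8 rose and none fell (31.3% and 0.834% of all promoter peaks), among the 38 others 9 rose (16.6%), and 6 of the 9 genes rose at the promoter peak nearest the start site (33.1% of 9956 genes with such a peak). The median change of those 9 peaks was 2.17 on the log2 scale and that of the 9956 was 1.34. In this set of peaks, promoter signal over the retina as a whole was thus higher at P28 too. All P28 libraries lay above all P4 libraries at 9 of 9 gene promoters (79.6% of all gene promoters) and at 40 of 54 peaks (50.6%).

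By P10, 9 of the 54 peaks were called higher than at P4 and 2 lower (11.4% and 7.34% of all peaks). These included the gene promoters of Kdm5b, Kdm2b, Kdm4c and Kdm6b, 4 of 9 against 11.3% of all gene promoters. Between P10 and P28 limma called none of the 54 peaks (0.00185% of all peaks were called higher), while 21 of the 54 had an unadjusted p under 0.05 (32.5% of all peaks). With limma voom on the recovered reads, 4 of the 54 were called in that comparison (8.26% of all peaks). Over the 3 ages together, 14 of 54 passed the F-test (24.6% of all peaks).

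These counts moved with single libraries and with the scaling. The 17 higher calls at P28 became 9 without P28 replicate 1, which leaves batch 1 alone, 6 or 5 without P28 replicate 2 or 3, 7 or 6 without P4 replicate 1 or 2, and 29 without either P10 library. Scaling each library to its reads in peaks, which lowered the median change of all gene promoters from 1.34 to 0.29, left 6 higher and 5 lower calls. The share of all peaks called is not given for these altered fits, so their counts cannot be set against the retina as a whole. Of the 17 higher calls, those at the Kdm5b promoter, at the Kdm5b peaks at -1.40 kb, -3.59 kb and 7101 bases and at the Kdm6b peak at -3838 bases (all described below) remained with that scaling and the others were lost. With the same scaling under voom, the calls at the Kdm5b promoter and at -3.59 kb were lost too (adjusted p = 0.0155 and 0.0225).

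**Figure D1:**
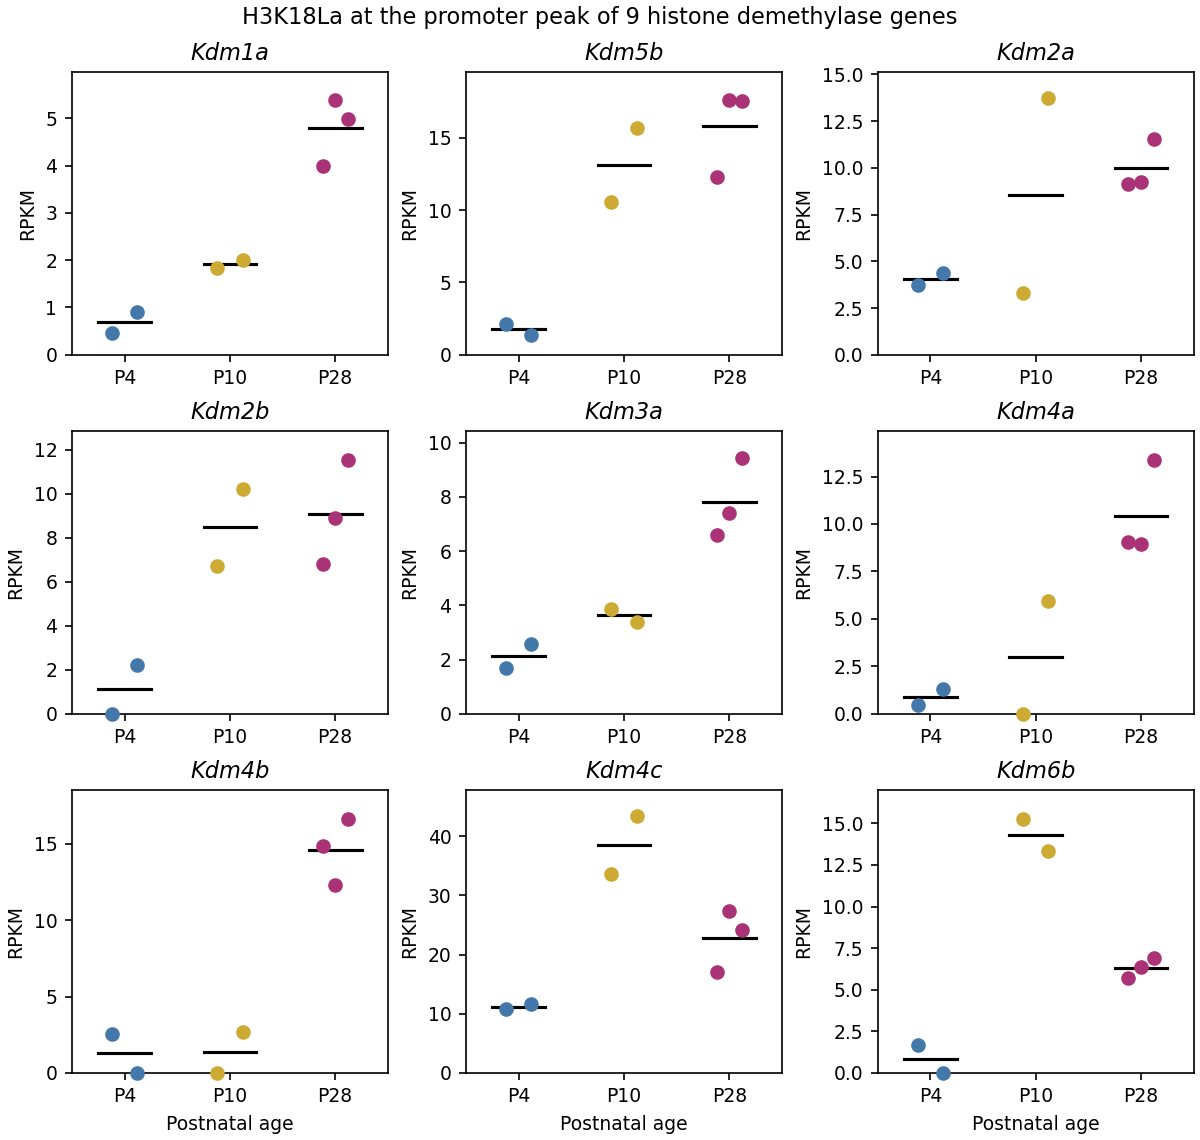
H3K18La (RPKM, linear axes from 0) at the promoter peak nearest the start site of 9 demethylase genes, with 1 point per library at P4, P10 and P28 and a black bar at the mean of each age. Kdm5b and Kdm2b were near their P28 level by P10, Kdm4b was at 1.34 RPKM at P10 and 14.6 at P28, and Kdm4c and Kdm6b were highest at P10.

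Kdm5b, an eraser of H3K4 methylation, gained signal at all 6 of its peaks, each called higher at P28 (18.9% of all peaks). The study itself names Kdm5b as an example of marks acquired at P10. Its promoter peak (chr1:134559979-134560833, over 3 annotated start sites) measured 2.13 and 1.40 RPKM in the P4 libraries, 10.6 and 15.7 at P10, and 12.3, 17.6 and 17.6 at P28. No P4 library came near the others, and the P10 and P28 libraries overlapped. The change was 2.34 ± 0.35 (SE) at P10 (limma, adjusted p = 0.0015) and 2.60 ± 0.32 at P28 (limma, adjusted p = 0.000346), and the read ratio of P28 to P4 was 9.29 (interval 4.23 to 25.5, on 6 P4 reads). The P28 call held without each of the 7 libraries in turn, with adjusted p from 5.29e-05 to 0.00892. At P10 the call was lost without P4 replicate 1 or 2, with adjusted p up to 0.0162, with only P4 and P10 in the fit, under quantile normalization and with voom scaled to reads in peaks (adjusted p up to 0.111). Its promoter exceeded 54.8% of gene promoters in level at P4, 95.7% at P10 and 93.5% at P28.

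A peak in the first intron of Kdm5b, 7101 bases past the start site (chr1:134567272-134568214), also gained signal. It measured 0.482 and 0.633 RPKM at P4, 7.66 and 8.36 at P10, and 14.5, 20.5 and 26.7 at P28, so the 3 ages did not overlap. The change from P4 was 2.53 ± 0.36 at P10 (limma, adjusted p = 0.00132) and 3.75 ± 0.33 at P28 (limma, adjusted p = 0.000126), and the P28 call held in all 18 alternatives. It rested on 2 P4 reads, which gave a read ratio of 38.4 (interval 10.6 to 318). A pair of upstream peaks, centered at -1.40 and -3.59 kb from the first start site, rose by 3.50 ± 0.44 and 2.33 ± 0.29 at P28 (limma, adjusted p = 0.000385 and 0.000366), calls that held without each of the 7 libraries. The other 2 peaks in intron 1, 9839 and 21483 bases past the start site, rose by 2.52 ± 0.45 and 1.99 ± 0.43 (limma, adjusted p = 0.00205 and 0.00563). The first of these calls was lost without P28 replicate 2 or 3 or either P4 library (adjusted p 0.0149 to 0.0333) and the second without any 1 P4 or P28 library (0.0196 to 0.0433). With P4 libraries of 3 reads or fewer set to 3 reads, both were lost (changes 1.36 and 1.35), and the peak at -1.40 kb rose by 1.83. That peak rested on 1 P4 read (read ratio 27.1, interval 4.81 to 1077). Its P28 call was lost with a pseudocount of 0.1 RPKM (limma, adjusted p = 0.0101). By P10, 5 of the 6 Kdm5b peaks were called higher (11.4% of all peaks), all but that at 21483 bases. Without P4 replicate 1 none of these 5 P10 calls held (adjusted p 0.0114 to 0.0436). The P10 call in intron 1 at 7101 bases was lost also without P4 replicate 2, that at 9839 bases also without P4 replicate 2, P10 replicate 2 or P28 replicate 2 or 3, and that at -3.59 kb in every fit but the one without P10 replicate 1.

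Kdm1a, the H3K4 demethylase of CoREST, rose by P28 to a modest level. Its promoter peak (chr4:136601114-136603086, over 3 start sites) measured 0.461 and 0.907 RPKM at P4, 1.83 and 2.00 at P10, and 3.99, 5.39 and 4.99 at P28. The libraries of the 3 ages did not overlap, and the P28 to P10 difference was not called (limma, adjusted p = 0.119). The P28 change was 1.79 ± 0.40 (limma, adjusted p = 0.00606), with a read ratio of 7.79 (interval 3.30 to 24.2), while the P10 change of 0.80 ± 0.43 was not called. Without any 1 P4 or P28 library the P28 adjusted p was between 0.018 and 0.0464, and scaling to reads in peaks lowered the change to 0.88 (adjusted p = 0.0849). At P28 the Kdm1a promoter exceeded 47.8% of gene promoters, near the middle. Its other peak, in intron 2, went from 0.310 to 3.60 RPKM on 1 P4 read and was not called.

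Kdm5a, the other H3K4 demethylase here, had no peak of its own. A single peak covers its start site (chr6:120363063-120364780), and the deposited annotation gives that peak to Ccdc77, a gene on the opposite strand that starts in the same interval. Signal there was low at all ages, at 0.793 and 0.695 RPKM at P4, 1.05 and 0.459 at P10, and 1.83, 1.68 and 1.31 at P28. The P28 change of 0.58 ± 0.38 was not called (limma, adjusted p = 0.243).

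The H3K36 demethylases Kdm2a and Kdm2b, both of which bind unmethylated CpG through a CXXC zinc finger, differed in their calls. Kdm2b, the recruiting subunit of the Polycomb complex PRC1.1, measured 0 and 2.21 RPKM at its most 5′ promoter peak at P4 (chr5:122989015-122989553, shared with the start of A930024E05Rik), 6.70 and 10.2 at P10, and 6.81, 8.89 and 11.5 at P28. Both later ages lay above P4 and overlapped each other. The log2 change was 2.38 ± 0.54 at P10 (limma, adjusted p = 0.00812) and 2.46 ± 0.49 at P28 (limma, adjusted p = 0.0036) on only 2 P4 reads. The P28 adjusted p rose to between 0.0143 and 0.0337 without P28 replicate 1, 2 or 3 or P4 replicate 1. The P10 call was lost without P10 replicate 2, any P28 library or P4 replicate 1. Scaled to reads in peaks, the changes were 1.73 at P10 and 1.64 at P28, and neither was called (adjusted p = 0.073 and 0.0562). With P4 libraries of 3 reads or fewer set to 3 reads, they were 1.25 and 1.34, both calls were lost (adjusted p = 0.0233 and 0.0114), and the P28 change exceeded 62.7% of gene promoters in place of 91.9%.

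Kdm2b has 5 promoter peaks, and 3 of them were called higher at P28 (31.3% of all promoter peaks). At all 7 Kdm2b peaks both P4 libraries had 3 reads or fewer. The neighbor of the most 5′ peak (chr5:122987250-122988680) went from 0.318 ± 0.449 (SD, n = 2) to 5.02 ± 0.470 RPKM (n = 3), and the CpG-rich internal start site shown above (peak chr5:122899326-122901250) from 0.236 ± 0.334 to 3.86 ± 0.309. Their P28 changes were 2.23 ± 0.41 and 2.00 ± 0.42 (limma, adjusted p = 0.00233 and 0.00481), on 2 P4 reads each. The first call was lost without any P28 library or P4 replicate 2 (adjusted p 0.0136 to 0.0188), and the second without any 1 P4 or P28 library (adjusted p 0.0160 to 0.0352) and with the floor of 3 reads (change 1.42). An intron peak 51698 bases past a start site (chr5:122937791-122938125) was called lower at P10 (change -1.36 ± 0.32, limma, adjusted p = 0.00939) on 2 reads at P4 and none at P10, and no fit without 1 library called it (adjusted p 0.0133 to 0.0249).

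At Kdm2a the promoter peak (chr19:4397377-4398466) was already above 93.1% of gene promoters at P4, at 3.75 and 4.38 RPKM. It measured 3.31 and 13.7 at P10, on either side of the other ages, and 9.15, 9.25 and 11.6 at P28. The P28 change of 1.11 ± 0.46 was not called (limma, adjusted p = 0.077), and its sign turned to -0.23 when libraries were scaled to reads in peaks and to -0.19 under quantile normalization. Without P10 replicate 1 or 2 it was called (adjusted p = 0.00487 and 0.00522). A second promoter peak just downstream (chr19:4396558-4397183) went from 1.57 ± 0.866 RPKM at P4 and 1.89 ± 2.67 at P10 to 8.65 ± 0.736 at P28, with a change of 1.95 ± 0.59 that was not called (limma, adjusted p = 0.025).

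Kdm3a, an H3K9 demethylase induced by hypoxia in many cell types, had 1 peak, over its promoter (chr6:71631779-71633644). It measured 1.70 and 2.56 RPKM at P4, 3.87 and 3.38 at P10, and 6.61, 7.41 and 9.44 at P28, with no overlap between ages. Neither P10 against P4 nor P28 against P10 was called (limma, adjusted p = 0.266 and 0.0926). The P28 change was 1.49 ± 0.34 (limma, adjusted p = 0.00655) with a read ratio of 3.74 (interval 2.24 to 6.74). Without any 1 P4 or P28 library the adjusted p lay between 0.0159 and 0.0394. The change stood close to that of the retina as a whole, above 57.6% of gene promoters, and shrank to 0.28 when libraries were scaled to reads in peaks. At P10 the sign turned with that scaling, from 0.57 to -0.43.

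**Figure D2:**
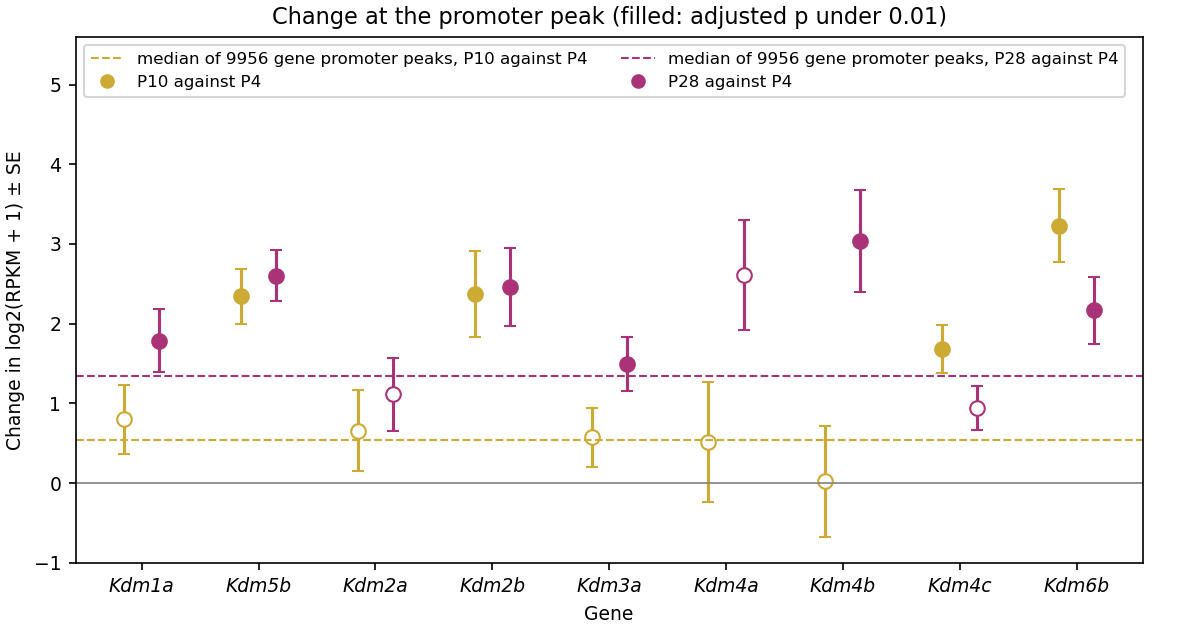
Change in log2(RPKM + 1) from P4 at the promoter peak of each gene, P10 in yellow and P28 in purple, with the limma standard error as bars, filled where the adjusted p was under 0.01, and dashed lines at the median of 9956 gene promoter peaks. Kdm5b, Kdm2b, Kdm4c and Kdm6b were called at P10, and Kdm4b moved by 0.02 at P10 and 3.04 at P28.

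The Kdm4 genes, whose enzymes act on both H3K9 and H3K36, come next. At Kdm4b, signal was low at P4 and P10 and higher at P28, and the values of the younger ages rested on 5 reads at P4 and 3 at P10. Its promoter peak (chr17:56325429-56326311, over 3 start sites) measured 2.57 and 0 RPKM at P4, 0 and 2.68 at P10, and 14.9, 12.3 and 16.6 at P28. P4 and P10 overlapped, and every P28 library stood above them. The P28 change was 3.04 ± 0.64 from P4 (limma, adjusted p = 0.00464), higher than 98.4% of gene promoters, with a read ratio of 9.35 (interval 3.96 to 29.0). Against P10 it was 3.01 ± 0.64, higher than 99.8% of gene promoters, but not called by limma on RPKM (adjusted p = 0.0193) and called by voom (adjusted p = 0.000562). Without any 1 P4 or P28 library the adjusted p against P4 lay between 0.0158 and 0.0824. Over fits that leave out 1 library, the P28 change ran from 2.12 to 3.95 against P4 and from 2.07 to 3.95 against P10. The P10 change from P4 ran from -0.92 to 0.96. Scaled to reads in peaks, the P28 change from P4 was 2.14 and not called (adjusted p = 0.0488), and the P10 change of 0.02 turned to -0.61.

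The 13 other Kdm4b peaks lay inside the gene, 10 in introns and 3 in exons. Their P28 means ran from 1.14 to 5.72 RPKM, and 1 of the 13 was called higher at P28 (16.6% of all peaks outside promoters). It lay in intron 5 at 39435 bases (chr17:56365509-56366828) and went from 0.796 ± 0.153 RPKM to 5.72 ± 1.80 (change 1.87 ± 0.40, limma, adjusted p = 0.0052). That call was lost without P28 replicate 2 or 3 or either P4 library. The highest of the 13 over all libraries (chr17:56370409-56372082) went from 1.84 ± 0.0832 to 5.32 ± 1.01 RPKM without a call (limma, adjusted p = 0.0645). The intron 8 peak at 56549 bases was the highest of the gene at P4, at 3.43 ± 0.287 RPKM, and measured 2.60 ± 1.1 at P28.

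The Kdm4a promoter did not pass the limma test on RPKM. Its peak (chr4:118179455-118180384, over 4 start sites) measured 0.489 and 1.28 RPKM at P4, 0 and 5.93 at P10, and 9.03, 8.92 and 13.4 at P28. All P28 libraries exceeded all others, and the P10 libraries, with 0 and 7 reads, spanned the P4 values. The P28 change was 2.61 ± 0.69 (limma, adjusted p = 0.0135), and it was called without either P10 library (adjusted p = 0.00011 and 0.000133). Its read ratio was 11.9 (interval 4.04 to 58.3). The P28 change was also called higher with voom (adjusted p = 4.2e-06), under quantile normalization (adjusted p = 0.00652) and with only P4 and P28 in the fit. Scaled to reads in peaks it was 1.61 and not called (adjusted p = 0.0677), and 12 of 18 alternatives gave the same outcome as the main fit. Neither of its 2 intron peaks was called, and the higher of them (chr4:118147545-118148285) went from 1.23 ± 1.73 to 3.46 ± 1.19 RPKM.

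Kdm4c had the highest promoter signal of the 9 genes at every age. Its promoter peak over the upstream start site (chr4:74241759-74242938) measured 10.8 and 11.6 RPKM at P4, 33.7 and 43.4 at P10, and 17.1, 27.3 and 24.1 at P28. P10 was highest, P4 lowest, and the ages did not overlap. In level this peak exceeded 99.96% of gene promoters at P4, 99.86% at P10 and 97.96% at P28. The P10 change was 1.69 ± 0.30 (limma, adjusted p = 0.00306) and was lost without P28 replicate 2 or either P4 library (adjusted p 0.0106 to 0.0291). Scaled to reads in peaks, it fell to 0.40 (adjusted p = 0.137). The P28 change from P4 was 0.94 ± 0.27 and not called (limma, adjusted p = 0.0208), and its direction turned to -0.52 when libraries were scaled to reads in peaks and to -1.02 under quantile normalization, where it was called lower (adjusted p = 0.00271). Quantile normalization also turned the P10 change to -0.48, and voom called the P28 change higher (1.08, adjusted p = 0.00542), as did the fit of P4 and P28 alone.

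The second start site of Kdm4c, further downstream (peak chr4:74251141-74252876, which also covers the start of A230083N12Rik) measured 7.07 and 8.25 RPKM at P4, 17.7 and 16.3 at P10, and 13.3, 17.0 and 19.1 at P28. Here P10 fell within the P28 range. The read ratio of P28 to P4 was 2.25 at the upstream peak (interval 1.69 to 3.05) and 2.24 at the downstream peak (interval 1.68 to 3.03). That of P28 to P10 was 0.62 at the upstream peak (interval 0.496 to 0.783) and 1.01 at the downstream peak (interval 0.765 to 1.36). The P28 to P10 difference was not called at either peak (limma, adjusted p = 0.0953 and 0.898). At the upstream peak it was called lower with median centring (change -1.02, adjusted p = 0.00924) and with voom scaled to reads in peaks (adjusted p = 0.00245), and the difference between the peaks was not tested.

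Upstream of Kdm4c, a peak at -3011 bases (chr4:74238540-74239486) measured 6.24 and 3.15 RPKM at P4, 5.72 and 31.6 at P10, and 10.3, 21.5 and 25.7 at P28. The P10 libraries lay on either side of all P28 libraries, and no change was called (P28 against P4 1.79 ± 0.62, limma, adjusted p = 0.0408). A further peak at -5798 bases (chr4:74236367-74236699), the highest of the other Kdm4c peaks over all libraries, measured 8.19 and 8.96 RPKM at P4, 16.3 and 40.2 at P10, and 7.88, 15.7 and 19.2 at P28. Its P10 mean was above that of P28 with overlapping libraries, and no change was called (P10 against P4 1.48 ± 0.48, limma, adjusted p = 0.0353). Further into Kdm4c, a peak in intron 1 (chr4:74257803-74258715) measured 0.995 and 0 RPKM at P4, 0 and 1.73 at P10, and 6.32, 10.5 and 10.8 at P28. It rose by 2.82 ± 0.54 (limma, adjusted p = 0.00304) on 2 P4 reads, and the call was lost without any 1 P4 or P28 library (adjusted p 0.0126 to 0.0512) and with the floor of 3 reads (change 1.88, adjusted p = 0.0138). The only demethylase peak called lower at P28 lay 178516 bases past a start site, beyond the end of Kdm4c (chr4:74441326-74441563), with 3 reads at P4, none at P10 and 2 at P28. Its changes of -1.67 ± 0.33 at P28 and -2.04 ± 0.36 at P10 (limma, adjusted p = 0.00336 and 0.00293) were each lost without some libraries, the P28 call without either P4 library or P28 replicate 1 or 2 (adjusted p up to 0.0252) and the P10 call without either P4 library or P28 replicate 2 (up to 0.0175).

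Kdm6b, an eraser of the Polycomb mark on H3K27, was low at P4 and highest at P10 at its promoter peak. This peak (chr11:69414668-69415495) ends at -993 bases from the start site and covers no annotated exon. It measured 1.65 and 0 RPKM at P4, 15.3 and 13.3 at P10, and 5.70, 6.38 and 6.88 at P28, with no overlap between ages. The P10 change of 3.23 ± 0.46 (limma, adjusted p = 0.00136) exceeded 99.8% of gene promoters and was called without each of the 7 libraries, with adjusted p from 0.00189 to 0.00783. It was lost when libraries were scaled to reads in peaks (change 2.56, adjusted p = 0.0134), with a pseudocount of 0.1 RPKM (0.016) and with only P4 and P10 in the fit (0.0621). Voom scaled to reads in peaks lost it too. The P28 change from P4 was 2.17 ± 0.42 (limma, adjusted p = 0.00317), lost without P4 replicate 2 or any P28 library (adjusted p 0.0149 to 0.0183) and when scaled to reads in peaks (change 1.36, adjusted p = 0.0869). With the floor of 3 reads at P4 the changes were 2.40 at P10 and 1.34 at P28. P28 libraries fell below both P10 libraries at 2 of the 9 gene promoters, Kdm6b and Kdm4c, against 5.74% of all gene promoters. At Kdm6b the P28 to P10 read ratio was 0.46 (interval 0.289 to 0.766), on 21 P10 reads, and limma did not call it (change -1.06 ± 0.42, adjusted p = 0.114). With voom scaled to reads in peaks this difference was called lower (adjusted p = 0.00939).

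A second upstream peak of Kdm6b lay at -3838 bases from the start site (chr11:69417513-69419928), and its difference from the promoter peak was not tested. It measured 1.5 and 0.988 RPKM at P4, 9.71 and 11.1 at P10, and 10.2, 10.4 and 12.8 at P28. P10 and P28 overlapped well above P4, with changes of 2.35 ± 0.33 and 2.44 ± 0.30 (limma, adjusted p = 0.00124 and 0.00036). The P28 call held in all 18 alternatives and the P10 call in 16. The 5′ UTR peak at 3487 bases rose from 0.831 ± 0.159 to 6.85 ± 0.136 RPKM (change 2.10 ± 0.36, limma, adjusted p = 0.00167, lost without either P4 library or P28 replicate 2 or 3), and the intron 1 peak went from 0.776 ± 0.227 to 8.29 ± 0.869 without a call (adjusted p = 0.0123).

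**Figure D3:**
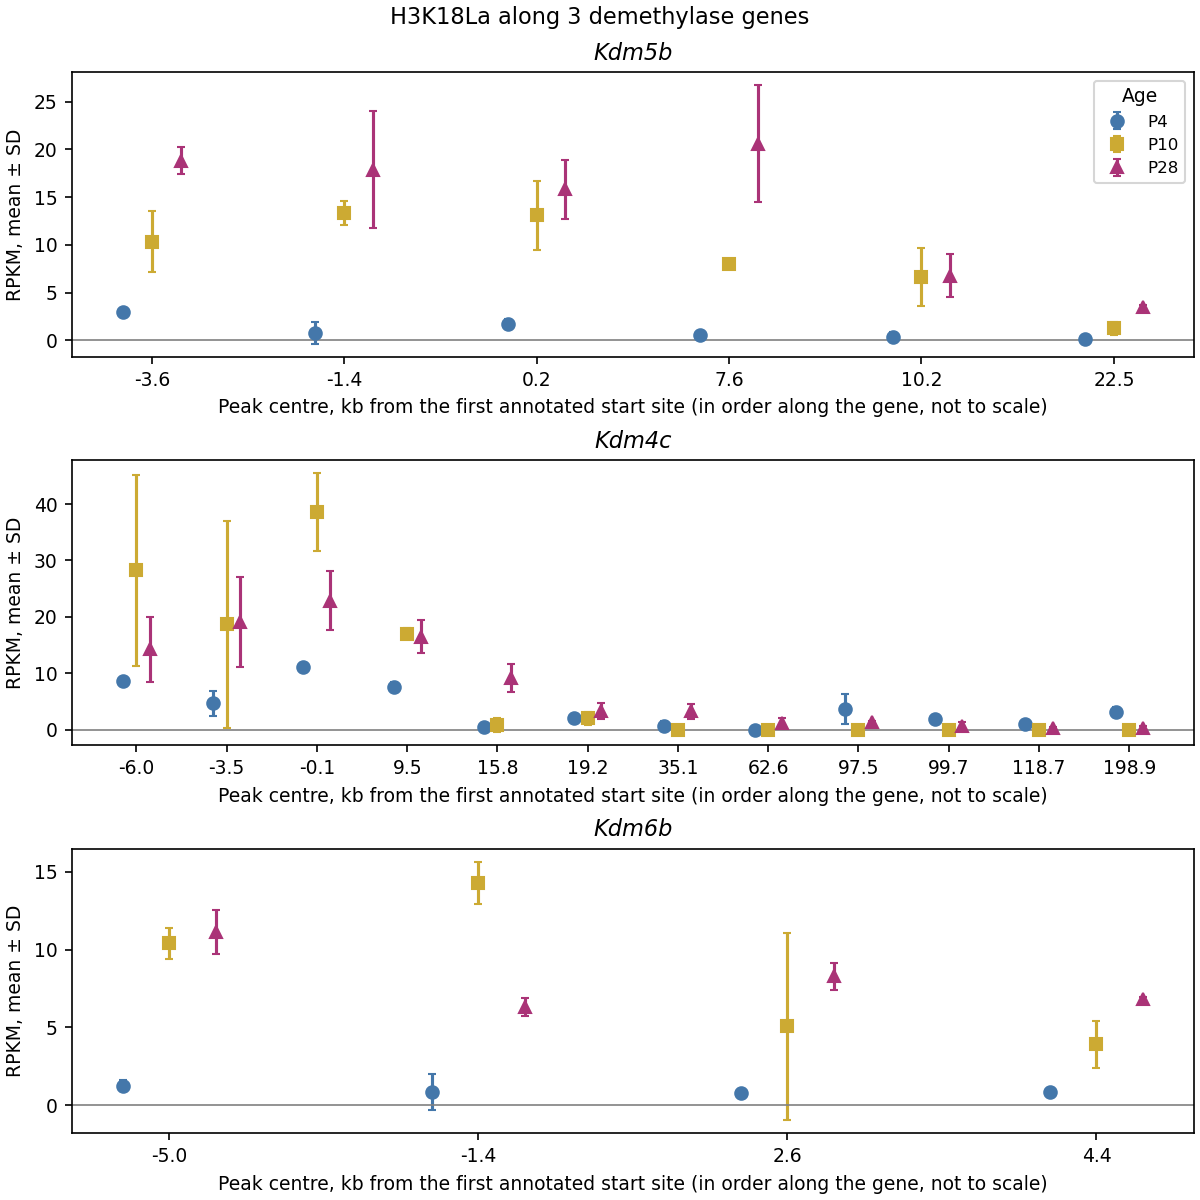
H3K18La (RPKM, mean ± SD over 2 libraries at P4 and P10 and 3 at P28) at each peak of Kdm5b, Kdm4c and Kdm6b, ordered by the distance of the peak center from the first annotated start site (positions are not to scale). In the text, positions in bases run to the near edge of a peak and those in kb to its center. Kdm5b rose at all 6 peaks. Kdm4c had its highest mean at P10 at both start sites (at the downstream one 17.0 against 16.5 RPKM at P28) and at the peak centered at -5.96 kb (-5798 bases in the text). Kdm6b had its highest mean at P10 at the promoter peak nearest its start site. Limma did not call these differences between P10 and P28.

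In base composition, the gene promoter peaks fell into different ranges. Over 9956 gene promoter peaks the median was 6.05 CpG per 100 bases. The Kdm5b peak held 10.8 and exceeded 95.6% of them, and Kdm2a (9.82), Kdm4b (9.29), Kdm3a (7.72), Kdm2b (7.42) and Kdm1a (6.84) were also above the median, while Kdm4a held 4.41. The upstream Kdm4c peak (0.763) and the Kdm6b peak (0.362) were the poorest, above only 1.75% and 0.422% of gene promoter peaks.

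Averaged over all peaks of each gene, weighted by covered length (1866 to 12593 bases), Kdm5b had the highest P28 level at 12.4 ± 2.09 RPKM (SD, n = 3). It was followed by Kdm4c at 10.5 ± 2.67, Kdm6b at 8.70 ± 0.818, Kdm3a at 7.82 ± 1.46 and Kdm4a at 6.24 ± 1.92, then Kdm1a at 4.40 ± 0.789, Kdm4b at 4.31 ± 0.570, Kdm2a at 4.21 ± 0.469 and Kdm2b at 3.52 ± 0.328. Neighbors in this order overlapped within 1 SD of each mean. At P4 the highest was Kdm4c at 4.48 ± 0.336, and the next, Kdm3a, was at 2.13 ± 0.604.

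**Figure D4:**
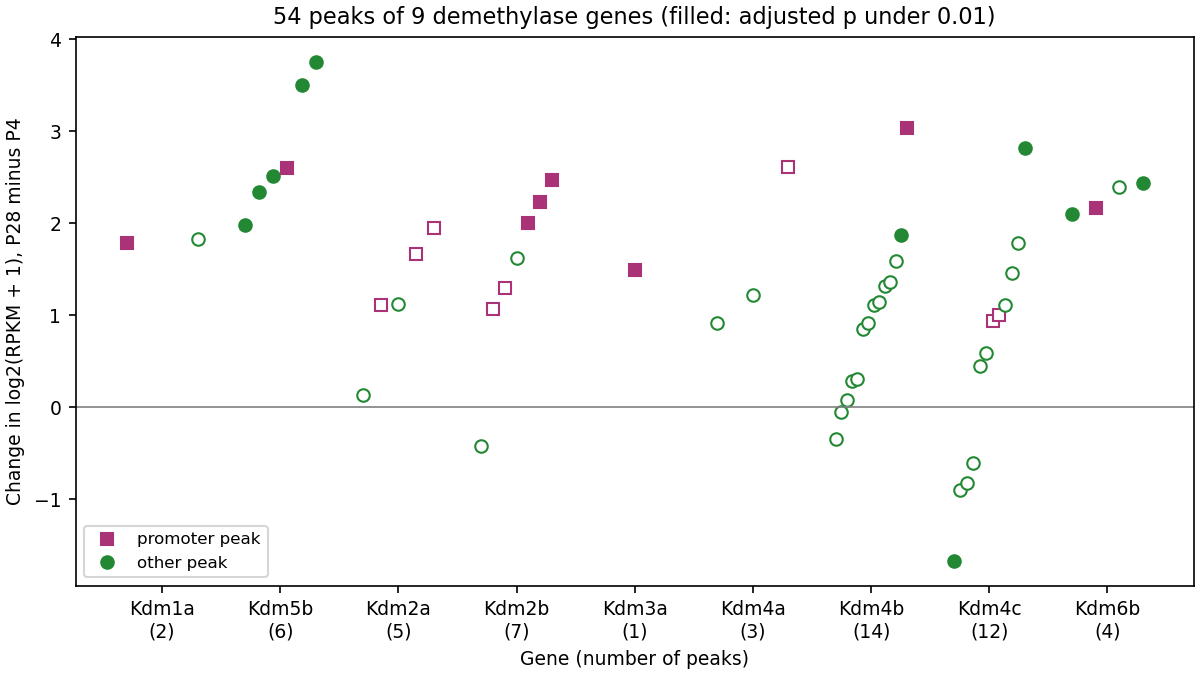
Change in log2(RPKM + 1) from P4 to P28 for each of the 54 peaks by gene, squares for promoter peaks and circles for other peaks, filled where the adjusted p was under 0.01. All 6 Kdm5b peaks were called, Kdm4b and Kdm4c spread on both sides of 0, and the single filled point below 0 is the distal Kdm4c peak.

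Related genes gave a frame for these values, with 1 promoter peak per gene. Of the genes named here, Phf2 had 21 P4 reads and Rnf2 15, and the others rested on 1 to 5. Of 12 other demethylase and JmjC genes with a promoter peak, 10 rose by P28 (median change 1.90), among them the nuclear corepressor Hr (3.32), the PRC2 cofactor Jarid2 (2.41), the H3K9 demethylase Phf2 (2.29) and Riox2 (2.28). Of 25 histone lysine methyltransferases, 14 rose (median 1.76), including the H3K79 enzyme Dot1l (3.21), the H3K4 enzyme Setd1b (2.88) and the H4K20 enzymes Kmt5c (2.57) and Kmt5a (2.55). Of the 9 CoREST partners of Kdm1a 5 rose (median 1.75), led by the deacetylase Hdac1 (2.38) and Phf21a (2.36), a reader of unmethylated H3K4. Of 6 PRC1.1 partners of Kdm2b, Pcgf1 (1.80) and the ubiquitin ligase Rnf2 (1.64) rose (median 1.32). None of these list members fell at P28, and the retina-wide share was 33.1% higher with a median of 1.34.

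The tissue label was checked on marker genes. Promoter peaks of rod photoreceptor genes rose at 9 of 9 by P10 (11.3% of all gene promoters) and at 9 of 9 by P28 (33.1%). Their summed signal was 23.4 and 30.3 RPKM at P4, 208 and 217 at P10 and 154 to 216 at P28. No promoter peak was called higher at P28 for retinal pigment epithelium (0 of 4), endothelium (0 of 2), microglia (0 of 1) or lens (0 of 2). In that order, 7, 5, 6 and 5 markers were listed, and the rest had no promoter peak. Sets this small cannot be told apart from the share of 33.1% over all gene promoters. In the same order, the summed signal was 8.41 and 10.2, 4.90 and 7.20, 1.63 and 1.71, and 3.46 and 4.89 RPKM at P4, and 12.9 to 16.8, 2.79 to 4.12, 1.49 to 4.71 and 3.90 to 5.20 at P28. The pigment epithelium sum includes Trpm1, also a bipolar cell gene, with means of 0.727 RPKM at P4 (3 reads) and 4.87 at P28. The mean of Dct was also higher at P28, and those of Best1 and Tyrp1 were lower. At P10 the mean was 0 at the pigment epithelium gene Best1, which was called lower at that age, and at the lens gene Bfsp1. Each had only 5 reads at P4, and 3 reads correspond to more RPKM at P10 than at P4. A P10 mean of 0 is therefore weak evidence of a fall. Rod signal thus moved in the same direction as the demethylase genes, and its part in their change was not tested.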

How the data were processed

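H3K18La CUT&Tag was analyzed in 7 libraries of mouse retina, grouped by the age in the sample labels. Per the study's methods, the authors mapped reads to GRCm38, called peaks with MACS, kept those with −log10 q above 6 in at least 2 replicates, annotated them with ChIPseeker 1.34.1 and counted reads per merged peak, with normalization from windows of 10000 bases. The authors deposited RPKM per library and merged peak, and that table was used. A second deposited table with the authors' fold changes, p-values and FDR was not used.

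RPKM multiplied by peak width was a whole multiple of 1 step per library in 100.0% of values (within 0.01 read), which gave the reads behind each value. Intervals on their ratios are exact 95% Clopper-Pearson intervals of the summed reads and cover counting error only. With a pseudocount of 1 RPKM, limma 3.58.1 (R 4.3.3) was fitted to log2(RPKM + 1) of all 7 libraries and 108253 peaks with a variance trend, and p-values were adjusted by Benjamini-Hochberg over all peaks, with calls at an adjusted p under 0.01. The P4 libraries differed by no more than sampling noise over peaks but by more over bins of the genome, and were kept as 2. Positions and features come from GENCODE vM21, promoter sequences from RefSeq (GRCm38.p6).

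Named were the promoter peaks nearest the start sites, then for each gene the highest other peak and up to 3 called others with the largest change, and from other lists at most 4 genes with the largest called change. The remaining Kdm5b peaks, the second Kdm4c promoter, Kdm4c at -3011 bases, Kdm4b at 56549 bases, Best1, Bfsp1 and uncalled peaks of Kdm1a and Kdm6b were added after their values were seen. The genes, lists and tests were chosen with earlier results of these data known. Alternatives were another pseudocount, a filter on low values, other scalings, a floor of 3 reads at P4, a replicate block, fits of 2 ages only, another threshold, leaving out each library, and limma voom on the recovered reads. The fit was tested on simulated data, and the outcome is not given here.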

Additional observations from a re-analysis of the deposited data

How the results depend on the processing

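The 2 edgeR alternatives planned were not run on the deposited RPKM, and limma voom on the recovered reads, chosen after seeing the data, stood in for them. The number of demethylase peaks called higher at P28 than at P4 was 17 of 54, and it was 7 with a pseudocount of 0.1 RPKM, 6 with libraries scaled to reads in peaks, 9 with the replicate block, 30 with only the 2 ages compared, 32 with voom, 8 with voom scaled to reads in peaks and 32 at an adjusted p under 0.05, with a range of 5 to 29 over fits that leave out 1 library. The number called lower was 1, and it was 4 with a floor of 3 reads at P4, 0 among peaks at or above the median RPKM and with the smaller pseudocount, 3 under quantile normalization, 5 and 7 (voom) when scaled to reads in peaks, 2 with voom, and 0 to 1 without 1 library. At P10 against P4, 9 were called higher, and 0 with only the 2 ages compared, 5 with the smaller pseudocount, 5 under quantile normalization, 3 and 0 (voom) when scaled to reads in peaks, 15 at an adjusted p under 0.05 and 2 to 14 without 1 library. The 2 called lower there became 6 with the floor, 0 with the filter, 4 with median centring, 0 with 2 ages only, 1 under quantile normalization, 1 with the replicate block, 5 when scaled to reads in peaks, 0 with either voom fit, 5 at the looser threshold and 0 to 1 without 1 library. At P28 against P10, 0 were called higher, and 4 with voom, 3 with voom scaled to reads in peaks, 8 at the looser threshold and 0 to 8 without 1 library, while 0 were called lower, 1 with median centring and 2 with voom scaled to reads in peaks. Of the 16 promoter peaks, the 8 called higher at P28 became 5 with median centring, 15 with 2 ages only, 1 with the smaller pseudocount, 3 with the replicate block, 1 when scaled to reads in peaks, 14 and 2 with voom without and with that scaling, 15 at the looser threshold and 1 to 14 without 1 library. The 4 called at P10 became 0 with 2 ages only, 2 with the smaller pseudocount, 1 under quantile normalization, 1 and 0 (voom) when scaled to reads in peaks, 7 at the looser threshold and 1 to 6 without 1 library, and the 0 called at P28 against P10 became 2 and 1 with voom without and with that scaling, 3 at the looser threshold and 0 to 4 without 1 library. Over the 3 ages, 14 peaks passed the F-test, 7 with the smaller pseudocount, 30 with voom, 33 at the looser threshold and 2 to 31 without 1 library. Apart from voom at P28 against P10, no share of all peaks is given for these alternatives, so their counts cannot be set against the retina as a whole. The cause was not tested.

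The Kdm4c promoter change reversed under quantile normalization, to -1.02 at P28 and -0.48 at P10 against P4. Same-numbered libraries did not deviate together (correlations of -0.001 to 0.047), so the replicate numbers were not taken as pairs. The P28 calls of the Kdm5b peak at 7101 bases and the Kdm6b peak at -3838 bases held in all 18 alternatives. Depth limits both younger ages. In a peak of median width, 3 reads correspond to 7.15 and 3.12 RPKM at P10 and to 1.80 and 2.36 at P4. Both libraries had 3 reads or fewer at 27 of the 54 peaks at P10 and at 39 at P4.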
